A study of Mus musculus with 4 samples.

Results

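Lipid-associated macrophage genes were followed as a set of 10 genes, Trem2, Gpnmb, Apoe, Spp1, Fabp5, Lpl, Cd9, Lgals3, Cd63 and Ctsd, chosen by symbol among the 31253 genes of the count tables. All 10 were found. They were read in single-cell RNA-seq of tumours of CT26, a mouse colon carcinoma line, and of the tumour-draining lymph node (TDLN), each from NanoCa-treated and from mock female mice aged 4 to 8 weeks. Tissue and treatment make 4 groups with 1 library each, named below by both, and no genotype or strain is given. The title of the series speaks of a lipid nanoparticle carrying calcium and of interferon beta, and the labels do not describe NanoCa further. For mock samples the labels disagree: their tag says untreated, but a protocol entry common to all 4 samples says NanoCa. Groups here follow the sample names and tags, and each comparison of NanoCa with mock depends on them.

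Macrophages that take up lipid, in obese fat, atherosclerotic plaques, injured brain and tumours, often share a programme named after TREM2. TREM2 is a surface receptor for lipids and lipoproteins that signals through TYROBP, and in mice lacking it this programme is blunted in several of those tissues. APOE carries lipid out of the cell and is also a TREM2 ligand, LPL and FABP5 release and shuttle fatty acids, cathepsin D and CD63 belong to lysosomes, and GPNMB is a lysosomal and surface glycoprotein of cells under lipid load. CD9 is a tetraspanin of the cell surface, galectin-3 (Lgals3) binds glycans on damaged lysosomes, and osteopontin (Spp1) is a secreted matrix protein that carcinoma cells also make.

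The members were described in C1q-rich macrophages, that is, in macrophage clusters whose summed C1qa, C1qb and C1qc level was at least 25% of that of the highest cluster of the tissue. Clusters were built without the members. The class held 1027 of 10209 kept cells in tumour NanoCa (10.1%), 695 of 8592 in tumour mock (8.09%), 70 of 10043 in TDLN NanoCa (0.697%) and 177 of 9425 in TDLN mock (1.88%). C1qa stood between 4267 and 6150 CPM (UMIs per 1000000 UMIs of the class) in the 4 libraries, Csf1r, the receptor for the main macrophage growth factor, between 423 and 617 CPM, and Adgre1 (F4/80) between 204 and 309 CPM. All 10 of the C1q-rich macrophage markers had UMIs in every library. The 9 T-cell markers summed to 32.2 and 15.3 CPM in tumour NanoCa and mock macrophages and to 127 and 88.3 CPM in those of the TDLN, and the 7 NK-cell markers to at most 5.18 CPM. Dendritic-cell genes were read at higher levels. The 8 conventional dendritic markers summed to 161 and 254 CPM in the tumour (NanoCa, mock) and 149 and 432 CPM in the TDLN. The 7 plasmacytoid dendritic markers summed to 672 and 598 CPM and to 917 and 689 CPM, of which Bst2, a gene that interferon induces in many cell types, made 653, 584, 896 and 679 CPM. Siglech, which marks plasmacytoid dendritic cells more narrowly, reached at most 5.69 CPM. The part of dendritic-cell RNA in the values below was not tested.

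The libraries held 74909974 to 167924801 UMIs and 9404 to 11287 barcodes, and pairs of libraries shared 120 to 179 of the barcodes that passed the filters. Although a CD45 stain was used for sorting, cells low in Ptprc, the gene for CD45, held 83.6% and 78.4% of the UMIs of kept cells in tumour NanoCa and mock and 24.7% and 49.0% in TDLN NanoCa and mock. Genes of those cells were also read at low levels in macrophages. Krt8, Krt18 and Rhox5 are genes of the carcinoma cells, but Krt8 and Krt18 were also high in clusters lower in Rhox5. They summed to 495 CPM in a tumour cluster led by Col3a1 and Col1a1. In 14 TDLN cells counted as Ptprc-low they summed to 9020 CPM, with Rhox5 at 4.25 CPM. Free RNA in macrophages was estimated as the level of Krt8, Krt18 and Rhox5 relative to Ptprc-low cells. This share was 12.5% in tumour NanoCa, 11.1% in tumour mock, 1.65% in TDLN NanoCa and 5.10% in TDLN mock. The TDLN shares rest on 6 UMIs with NanoCa (interval 0.605% to 3.59%) and 31 in mock (3.46% to 7.24%). Each gene's estimate is this share of its level in all kept cells. Against that sum the share would be larger, most of all in TDLN NanoCa. With 1 library per group no test was possible: 95% intervals cover counting error only, and a gene is called higher or lower where it had at least 50 UMIs over both sides, its interval excluded no difference, and the ratio reached 1.5-fold (NanoCa against mock) or 2-fold (between cell types or tissues).

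Trem2, Apoe and Ctsd were macrophage genes in all 4 libraries: of all classes with at least 50 cells, C1q-rich macrophages had the highest level of each, with an interval clear of the next class. Fabp5 and Lpl were also higher in C1q-rich macrophages than in the sum of all other cells of their library, whereas Spp1 and Cd9 were lower in all 4 libraries. After each cell was thinned to 2000 UMIs neither was called lower in TDLN NanoCa, where 40 macrophages were deep enough: Spp1 stood at log2 0.12 and Cd9 at -1.48 with an interval up to 0.07, and Lpl had no UMI. Of the 10 members, 6 were called higher and 2 lower in tumour NanoCa, 5 and 3 in tumour mock, 6 and 2 in TDLN NanoCa, and 5 and 2 in TDLN mock. Without the macrophage with the most Gpnmb UMIs, Gpnmb was no longer among the 6 of tumour NanoCa. Of all genes tested, 19.3% were called higher and 17.9% lower in tumour NanoCa, 18.2% and 18.7% in tumour mock, 12.4% and 14.5% in TDLN NanoCa, and 12.3% and 17.3% in TDLN mock.

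**Figure D1:**
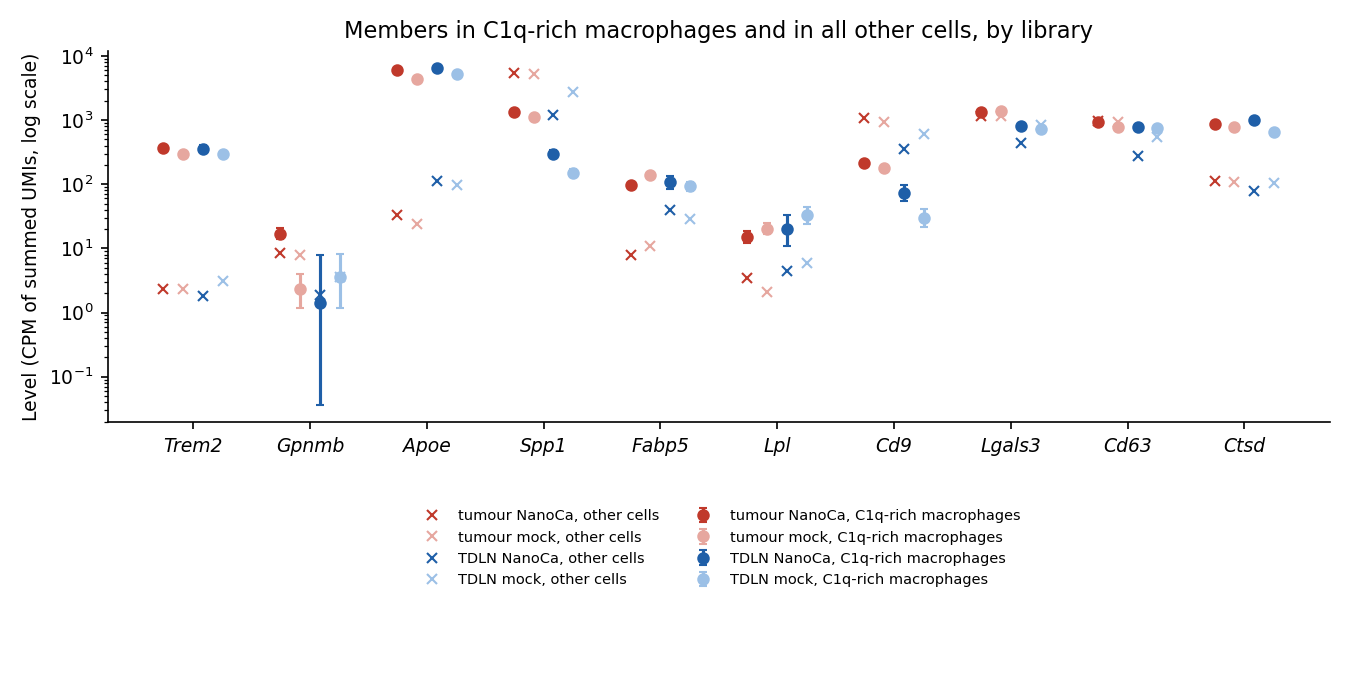
Level of each of the 10 genes (CPM, log axis) in C1q-rich macrophages (dots, with 95% Poisson intervals) and in all other cells (crosses) of the 4 libraries. Dots lie far above crosses for Trem2 and Apoe in every library and below them for Spp1 and Cd9.

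The receptor Trem2 stood at 360 CPM in tumour NanoCa macrophages, 292 in tumour mock, 360 in TDLN NanoCa and 294 in TDLN mock. The other cells of the same libraries had 2.35, 2.36, 1.84 and 3.14 CPM, so that macrophages were higher by 7.26, 6.95, 7.61 and 6.55 on the log2 scale. The next class in every library was monocytes or macrophages low in C1q, with 99.4, 106, 81.5 and 152 CPM in the same order. Both NanoCa libraries stood above both mock libraries in macrophages, by less than 1.5-fold.

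Apoe had the largest ratio to the pooled other cells of any member in the tumour, with 6029 CPM in NanoCa and 4343 CPM in mock macrophages against 33.4 and 23.7 CPM in the other cells. In the TDLN it stood at 6369 and 5175 CPM in macrophages and at 113 and 98.3 CPM in the other cells. The log2 ratio was 7.50 and 7.52 in the tumour and 5.82 and 5.72 in the TDLN. Monocytes or macrophages low in C1q again came second, with 940 to 1697 CPM.

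Outside macrophages, B cells had more Apoe than T cells in every library. They had 474, 324, 361 and 491 CPM of Apoe in the tumour (NanoCa, mock) and the TDLN (NanoCa, mock), against 143, 66.9, 15.9 and 26.5 CPM in T cells. C1qa was alike in B and T cells of the TDLN, at 5.9 and 6.0 CPM with NanoCa and 18.1 and 19.1 CPM in mock. In the tumour, with both libraries together, summed C1qa, C1qb and C1qc stood at 314 and 173 CPM in the B-cell clusters. The T-cell clusters there had 254, 228 and 95.8 CPM. The part of macrophage RNA in the Apoe of B cells was not tested.

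Ctsd, the lysosomal aspartic protease, stood at 882, 776, 1017 and 654 CPM in the macrophages of the tumour (NanoCa, mock) and the TDLN (NanoCa, mock). Other cells had 114, 108, 77.6 and 105 CPM, and the log2 ratio was 2.96, 2.85, 3.71 and 2.64. Its lead over the next class was shorter than for Trem2: monocytes or macrophages low in C1q had 594, 587 and 334 CPM in the first 3 libraries, and NK cells came second in TDLN mock with 504 CPM.

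The promoters of Ctsd and Trem2 are shown because both genes were highest in the same cells while their start regions carry different motifs. The sequences are the 250 bases before the gene start in RefSeq (GRCm38.p6), read 5′ to 3′ on the gene's strand, and 8 of the 10 members were in that table. In Ctsd (chr7:142387828-142388077, minus strand) capitals mark CACGTG, the palindromic E-box core bound by MITF and TFE factors that control lysosomal genes. In Trem2 (chr17:48346151-48346400, plus strand) capitals mark TTCCTC, the reverse of GAGGAA, the core bound by the myeloid factor PU.1.
Ctsd: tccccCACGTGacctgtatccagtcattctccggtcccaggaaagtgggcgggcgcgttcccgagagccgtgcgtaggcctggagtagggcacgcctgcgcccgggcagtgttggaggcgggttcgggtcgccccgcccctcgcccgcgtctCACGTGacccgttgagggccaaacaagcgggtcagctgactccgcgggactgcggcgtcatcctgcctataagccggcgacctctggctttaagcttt
Trem2: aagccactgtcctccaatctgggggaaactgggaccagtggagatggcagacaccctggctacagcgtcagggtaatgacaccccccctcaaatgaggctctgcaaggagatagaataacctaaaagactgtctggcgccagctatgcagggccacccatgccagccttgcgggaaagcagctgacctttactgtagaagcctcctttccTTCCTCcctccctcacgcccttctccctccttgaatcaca

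CACGTG was searched once, since both strands read alike, and occurred in 6.05% of the 27025 promoters of the same length, at least 2 times in 0.448%. Ctsd held it 2 times, and the other 7 members in the table did not hold it. GAGGAA or TTCCTC occurred in 23.1% of promoters, and among the members in at least 1 listed start region of Trem2, Apoe, Spp1 and Cd63. The motifs share no overlap in these windows, and a match describes letters, not binding.

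Of the fatty-acid genes, Fabp5, a cytosolic fatty-acid carrier, had 97.8 and 137 CPM in tumour NanoCa and mock macrophages and 108 and 92.6 CPM in those of the TDLN. Its log2 ratio to other cells was 3.63 and 3.64 in the tumour and 1.47 and 1.71 in the TDLN. It was not led by macrophages: endothelial-like cells had 684 and 1310 CPM in the tumour and 1051 in TDLN mock, and dendritic-like cells led TDLN NanoCa with 166 CPM, where the endothelial class had fewer than 50 cells.

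Lpl, the lipase that frees fatty acids from lipoproteins, was low throughout, with 15.1 and 20.3 CPM in tumour NanoCa and mock macrophages and 19.9 and 32.8 CPM in TDLN ones. This was above the 2.10 to 5.83 CPM of other cells in each library. Macrophages had the highest level of any class in tumour mock only, with an interval overlapping that of the next class. That next class, cells with fibroblast-list markers, pooled 2 clusters. The cluster lower in Rhox5 had more Lpl than macrophages in every library: 235 and 287 CPM in the tumour (NanoCa, mock) and 432 and 398 CPM in the TDLN.

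Cd63, a tetraspanin of lysosomes and late endosomes, and Lgals3 were shared with many other cells. Cd63 had 918, 768, 781 and 761 CPM in macrophages of the tumour (NanoCa, mock) and the TDLN (NanoCa, mock), and was called higher than in other cells only in TDLN NanoCa (279 CPM in other cells, log2 1.48). Lgals3 had 1321, 1359, 793 and 737 CPM in the same order and was called in none of the 4 libraries. After thinning, Lgals3 was called higher in both TDLN libraries (log2 2.82 with NanoCa, 1.31 in mock) and Cd63 in TDLN mock as well (2.07). The highest level of Lgals3 level was in monocytes or macrophages low in C1q, at 2741, 3594, 1670 and 2563 CPM.

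Spp1 and Cd9 were mainly genes of other cells. Macrophages had 1342, 1125, 297 and 150 CPM of Spp1 in the tumour (NanoCa, mock) and the TDLN (NanoCa, mock), and other cells had 5453, 5215, 1217 and 2723 CPM, a log2 ratio of -2.02, -2.21, -2.03 and -4.19. Cd9 showed the same order, with 217, 180, 73.9 and 29.9 CPM in macrophages and a log2 ratio of -2.30, -2.37, -2.25 and -4.33. Cells with fibroblast-list markers had the highest Spp1 in each library, 5829 to 7933 CPM, and in the tumour most of these cells formed a cluster that also expressed Rhox5, a gene active in the carcinoma. That cluster had 7653 and 7110 CPM of Spp1 in the tumour (NanoCa, mock), and the cluster lower in Rhox5 had 9416 and 3836 CPM. In the TDLN the Rhox5-expressing cluster had 5453 and 7954 CPM of Spp1 (NanoCa, mock), and the other had 7449 and 4619 CPM. The order of these clusters thus differed between NanoCa and mock.

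The free-RNA estimate was a large part of the macrophage reads of these 2 genes. It equalled 49.3%, 50.1%, 6.70% and 91.6% of the Spp1 level in macrophages of the tumour (NanoCa, mock) and the TDLN (NanoCa, mock). For Cd9 it equalled 59.7%, 56.0%, 7.80% and 101%. The TDLN values are uncertain, since the share behind them rests on 6 and 31 UMIs (NanoCa, mock) and is low for that tissue. By contrast the free-RNA estimate came to at most 2.03% for Trem2, Apoe and Ctsd, 1.61% for Fabp5 and 3.22% for Lpl in any library.

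**Figure D2:**
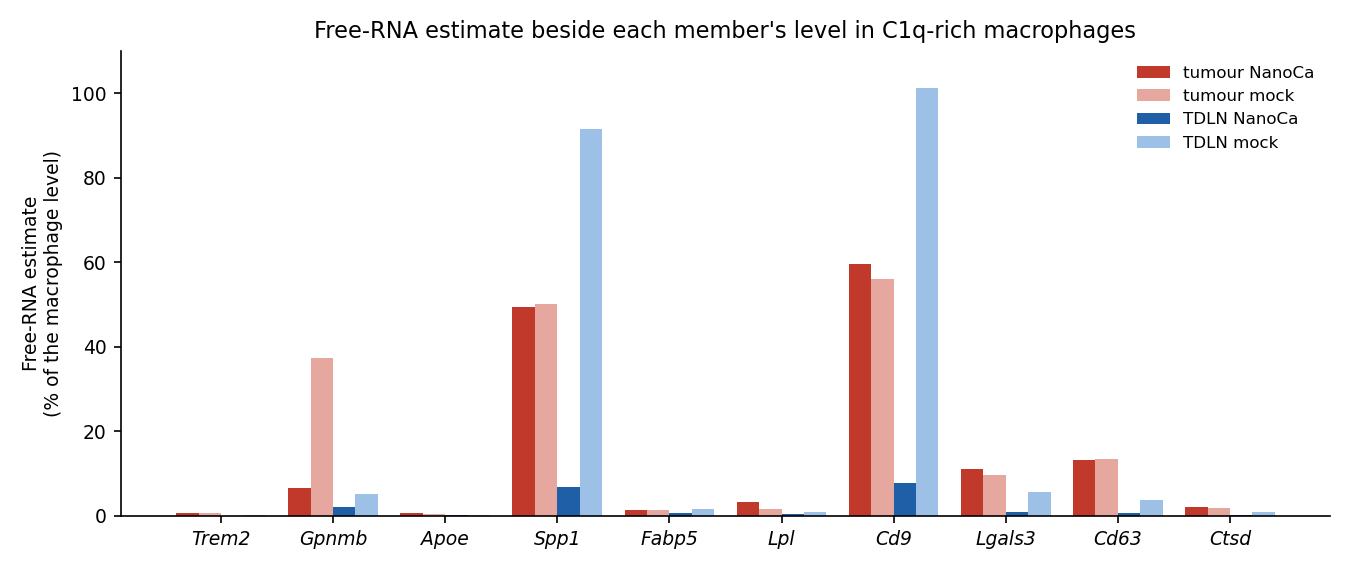
Share of each gene's level in C1q-rich macrophages (percent, bars) that equals the free-RNA estimate, in the 4 libraries. Bars are tall for Spp1 and Cd9 outside TDLN NanoCa, tall for Gpnmb in tumour mock (37.4%), and near 0 for Trem2, Apoe and Ctsd. The estimate is low for the TDLN, where few UMIs stand behind it.

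Gpnmb was read at few UMIs everywhere. Macrophages had 17.0 CPM (98 UMIs) in tumour NanoCa, 2.30 CPM (12 UMIs) in tumour mock, 1.42 CPM (1 UMI) in TDLN NanoCa and 3.56 CPM (5 UMIs) in TDLN mock. Against other cells it was called higher in tumour NanoCa (log2 1.00, interval 0.69 to 1.30), lower in tumour mock (-1.79, -2.74 to -0.97) and neither in the TDLN. The call in tumour NanoCa rested on 1 cell: without it macrophages had 8.49 CPM against 8.46 CPM in other cells (log2 0.01, interval -0.44 to 0.42). When macrophages were chosen cell by cell from their C1q UMIs, Gpnmb was called lower there (-2.02). Its highest level was 26.0 CPM in monocytes or macrophages low in C1q in tumour mock and 19.7 to 21.4 CPM in cells with fibroblast-list markers in the other 3 libraries.

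**Figure D3:**
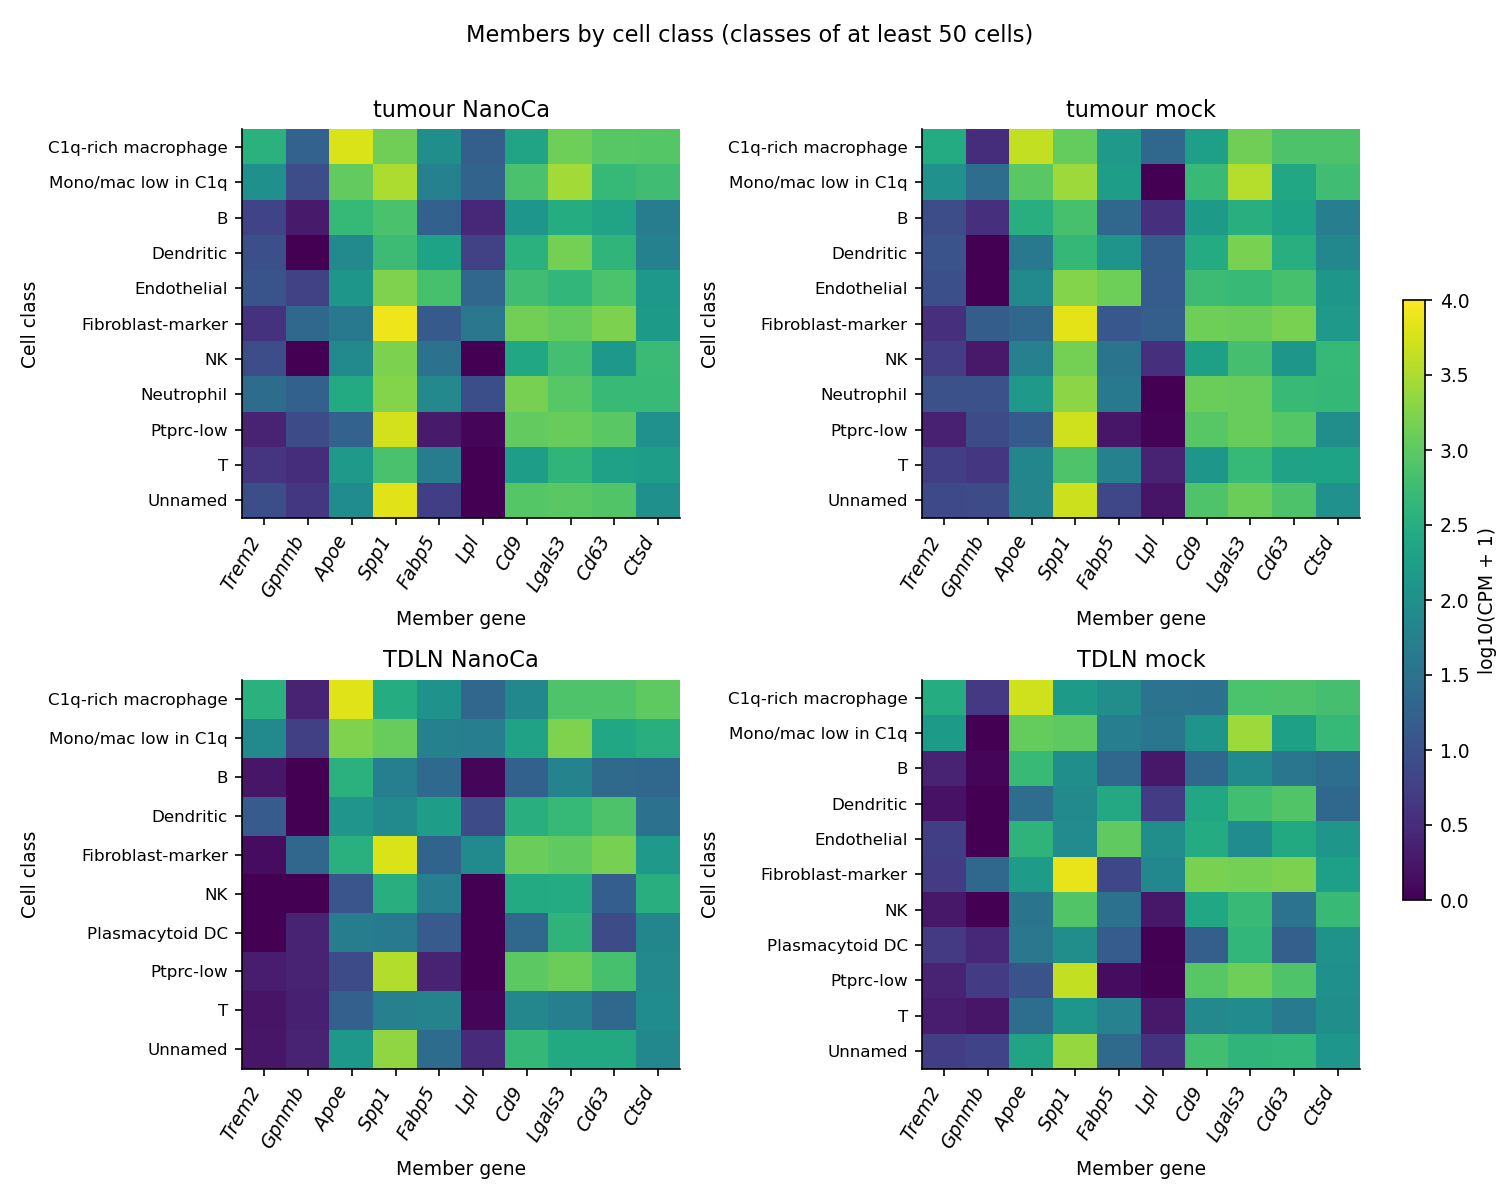
Level of each gene by cell class and library, coloured by log10(CPM + 1), for classes with at least 50 cells. Trem2, Apoe and Ctsd are highest in C1q-rich macrophages in all 4 libraries; Spp1 is highest in cells with fibroblast-list markers and Fabp5 mostly in endothelial-like cells.

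The same contrast was read per cell after each cell was thinned to 2000 UMIs, which kept 805, 589, 40 and 103 macrophages and left out 222, 106, 30 and 74 in the tumour (NanoCa, mock) and the TDLN (NanoCa, mock). A Trem2 UMI was found in 45.5%, 37.9%, 52.5% and 38.8% of the kept macrophages (57.7%, 57.4%, 50% and 45.8% before thinning), against at most 0.774% of T cells and 1.23% of B cells thinned alike. Apoe UMIs were found in 83.5% to 97.5% of macrophages, 31.6% to 53.7% of B cells and 3.03% to 17.5% of T cells.

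Spp1 did not separate macrophages from lymphocytes on this scale. In the tumour 60% and 60.1% of NanoCa and mock macrophages had a Spp1 UMI, against 66.5% and 73.5% of T cells. Carcinoma RNA was also read in tumour T cells, with Rhox5 at 99.2 CPM in their largest cluster. The part of free RNA in these shares was not tested. In the TDLN a Spp1 UMI was found in 20% and 24.3% of macrophages against 10.9% and 22.7% of T cells. The macrophage intervals there, 9.05% to 35.6% and 16.4% to 33.7%, take in both T-cell shares.

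For Cd9, a gene that lymphocytes also express, macrophage shares lay between or near those of lymphocytes. In the tumour 26.2% and 25.3% of NanoCa and mock macrophages had a UMI, against 27.7% and 24.5% of T cells and 21.0% and 16.6% of B cells. In the TDLN the shares were 7.50% and 5.83% of macrophages, 13.7% and 14.96% of T cells and 3.46% and 5.14% of B cells, with macrophage intervals of 1.57% to 20.4% and 2.17% to 12.2%. Gpnmb was found in 0.994% and 0.679% of tumour NanoCa and mock macrophages and in 0 of the 40 and 103 TDLN ones, where the interval reaches 8.81% and 3.52%.

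Few cells showed most of the members: Gpnmb was found in under 1% of thinned macrophages and Lpl in at most 7.77%. Before thinning, Gpnmb was found in 1.56% and 1.15% and Lpl in 5.74% and 7.63% of tumour macrophages (NanoCa, mock). The part of depth was not tested. The median thinned macrophage had UMIs of 5, 4, 4 and 3 of the 10 in the tumour (NanoCa, mock) and the TDLN (NanoCa, mock). At least 8 of the 10 were found in 11, 2, 1 and 0 cells, and no cell had all 10.

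Among tumour macrophages the members split over sub-clusters, which were also built without them. Trem2, Apoe, Ctsd and Cd63 were highest in a sub-cluster led by Ccl8, Cbr2, Lyve1 and Folr2, genes of resident-type macrophages, with 50 NanoCa and 22 mock cells. There Trem2 stood at 517 and 483 CPM in NanoCa and mock, Apoe at 8342 and 6891, Ctsd at 1757 and 1694 and Cd63 at 1207 and 1262. The Trem2 intervals there (446 to 596 and 402 to 576 CPM) took in the level of the sub-cluster led by Mmp12, Pf4 and Arg1. That sub-cluster had 454 and 429 CPM of Trem2 and 1200 and 961 CPM of Cd63 in NanoCa and mock. The lowest Trem2 was in a sub-cluster led by Lrmda and Slc8a1, with 94.2 and 62.6 CPM.

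Spp1 and Cd9 were at their lowest in that same Lyve1-expressing sub-cluster, with 233 and 234 CPM of Spp1 and 57.5 and 39.0 CPM of Cd9 in NanoCa and mock. Their highest levels were in a shallow sub-cluster (median 1129 UMIs per cell), at 2487 and 2530 CPM of Spp1 and 722 and 559 CPM of Cd9. That shallow sub-cluster was also led by Ccl8, Cbr2 and Folr2, like the Lyve1-expressing one. It had the lowest Apoe of the tumour sub-clusters, 2821 and 1503 CPM in NanoCa and mock. Rhox5, the carcinoma gene, stood at 176 CPM in this shallow sub-cluster and at 25.7 CPM in the Lyve1-expressing one. Its part in the Spp1 and Cd9 values was not tested.

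The remaining members peaked elsewhere. Spp1 was also high in the sub-cluster led by Mmp12, Pf4 and Arg1, with 2266 and 1946 CPM in NanoCa and mock and Rhox5 at 24.3 CPM. That sub-cluster held the highest Fabp5 and Lgals3 of tumour mock, 259 and 2009 CPM, while in tumour NanoCa both were highest in a sub-cluster led by the interferon-induced genes Rsad2 and Ifit3, 196 and 1953 CPM. Gpnmb and Lpl were highest in a sub-cluster led by the C1q genes themselves, where Gpnmb had 71.6 and 9.45 CPM and Lpl 31.1 and 77.9 CPM in NanoCa and mock. The 76 Gpnmb UMIs with NanoCa came from 4 of its 171 cells, 49 of them from 1, and the 4 in mock from 1 cell.

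**Figure D4:**
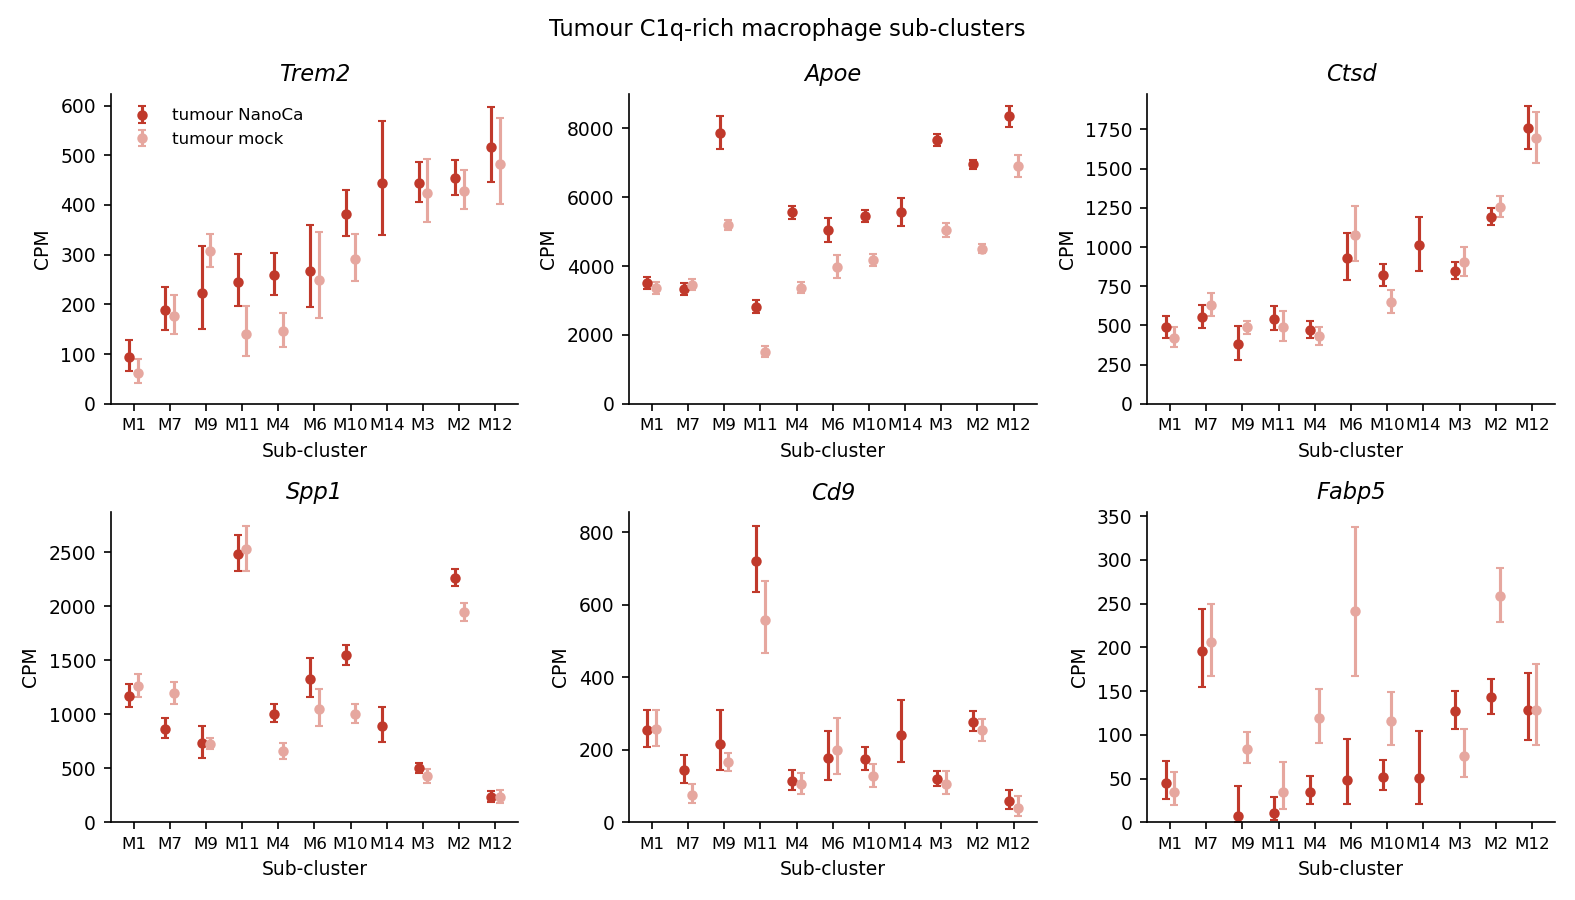
Level of Trem2, Apoe, Ctsd, Spp1, Cd9 and Fabp5 (CPM) in the sub-clusters of tumour C1q-rich macrophages with at least 10 cells, ordered by the Trem2 level with NanoCa. Trem2, Apoe and Ctsd are highest in sub-cluster M12, led by Lyve1 and Folr2, where Spp1 and Cd9 are lowest. Spp1 and Cd9 are highest in the shallow sub-cluster M11, which is also led by Ccl8, Cbr2 and Folr2. The Trem2 intervals of M12 take in the level of M2, led by Mmp12 and Arg1.

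In TDLN macrophages 3 sub-clusters were found, and Trem2, Apoe, Cd63 and Ctsd were highest in the deep one led by Ccl8 and the C1q genes, with 32 NanoCa and 75 mock cells. Trem2 there stood at 396 and 321 CPM and Apoe at 6924 and 5635 CPM in NanoCa and mock. The sub-cluster led by Pf4 and Ccl6 had nearly as much Trem2 in mock, 316 CPM from 26 UMIs. The TDLN counterpart of the Lrmda and Slc8a1 sub-cluster had the lowest Apoe, 2576 and 2493 CPM. Its C1q level was also near the class limit, at 27.7% of the highest.

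NanoCa was compared with mock in tumour macrophages. Of the 10 members 1, Gpnmb, was called higher and 0 lower, against 7.06% and 2.93% of the 9688 genes measured. In 7 of the 10 the ratio was above no difference, and the median log2 ratio was 0.26 over the members and 0.08 over all genes. Trem2 was 360 CPM with NanoCa and 292 in mock (log2 0.30, interval 0.20 to 0.40), Apoe 6029 and 4343 (0.47, 0.45 to 0.50), and both stayed under the 1.5-fold needed for a call.

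The Gpnmb difference of 17.0 against 2.30 CPM (log2 2.88, interval 2.01 to 3.88) rested on few cells. The UMIs came from 16 of 1027 NanoCa and 8 of 695 mock macrophages, and 49 of the 98 NanoCa UMIs lay in 1 cell. Without the highest cell of each library the counts were 49 and 8 UMIs (log2 2.47, interval 1.38 to 3.76). When macrophages were chosen cell by cell from their C1q UMIs, the log2 ratio was 0.54 and the call was lost.

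The other members differed by less. Spp1 (log2 0.25), Cd9 (0.27), Cd63 (0.26) and Ctsd (0.19) were slightly above mock and Lgals3 (-0.04) close to it. Fabp5 was 97.8 CPM with NanoCa and 137 in mock (-0.49, interval -0.65 to -0.33), and Lpl 15.1 and 20.3 CPM (-0.43, -0.86 to -0.01). Fabp5 was called lower when macrophages were chosen cell by cell (-0.78), given the same sub-cluster makeup in both libraries (-0.71), or taken without the sub-cluster led by Tnf and Ccl3 (-0.60), and Lpl in the first of these (-1.37). After thinning, Fabp5 was at -0.24 and Lpl at 0.20, neither called.

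The makeup of the class differed between the libraries. A sub-cluster led by Tnf, Ccl3 and Ccl4, inflammatory cytokine genes, held 16 of 1027 NanoCa and 105 of 695 mock macrophages. Within sub-clusters with at least 10 cells in both libraries, Apoe was called higher with NanoCa in 5 of 10, with log2 ratios from -0.05 to 0.91. Examples are the sub-clusters led by Mmp12 and Arg1 (6955 against 4500 CPM), by the C1q genes (7655 against 5044 CPM) and by MHC class II genes (5561 against 3376 CPM). Only the members were called within sub-clusters, so no share of all genes stands beside these counts or those that follow.

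Fabp5 was measured in 7 of the 10 sub-clusters and called lower in 4. It was called higher in 1, the one led by the C1q genes (127 against 75.6 CPM). Of the 4, the sub-cluster led by Tnf and Ccl3 had 1 Fabp5 UMI in 16 NanoCa cells, against 90 in 105 mock cells. Over tumour macrophages, 85.8% and 82.4% of Fabp5 UMIs lay in the 103 and 70 cells with the most (NanoCa, mock). In the Mmp12 and Arg1 sub-cluster Fabp5 had 143 CPM with NanoCa and 259 in mock. Trem2 and Spp1 were each called higher in 2 of 10 sub-clusters, and Cd9 in 1 of the 9 where it was measured. Gpnmb was called higher and Lpl lower in the 1 sub-cluster where they were measured, the one led by the C1q genes. Lgals3, Cd63 and Ctsd were called in neither direction in any of 10.

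**Figure D5:**
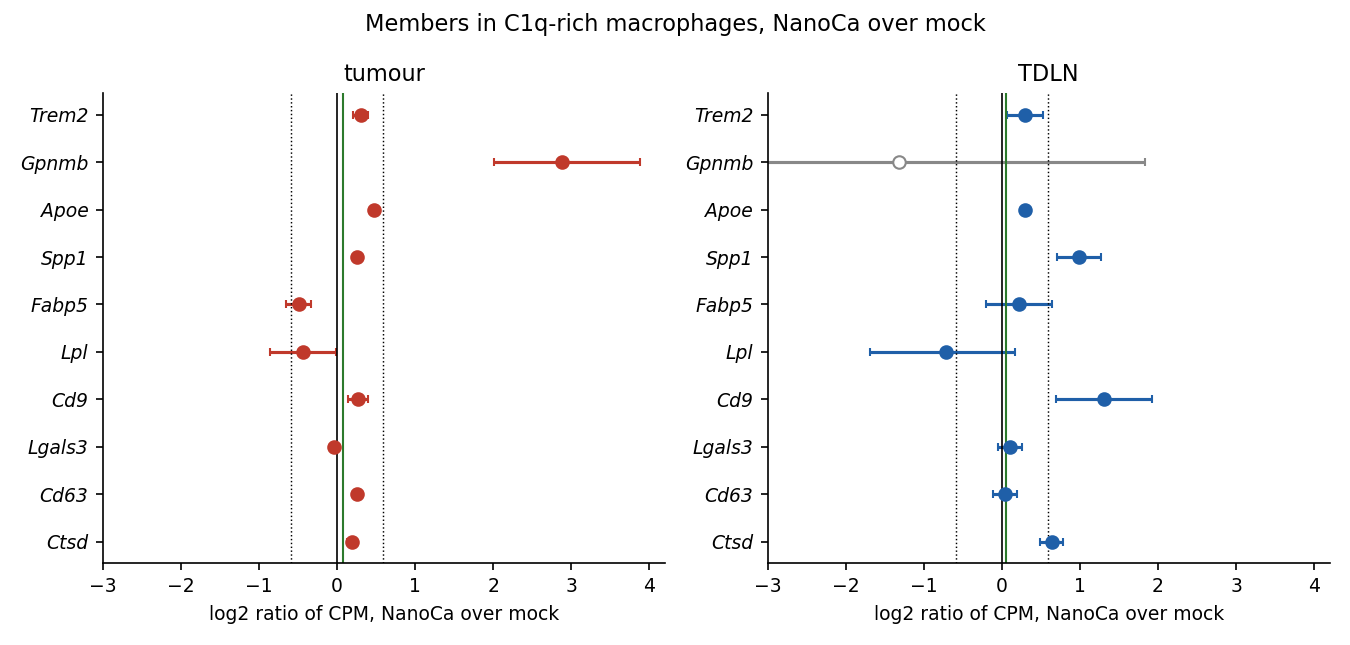
Log2 ratio of NanoCa over mock in C1q-rich macrophages of each tissue, with 95% counting intervals; the green line is the median of all genes, dotted lines mark 1.5-fold, and the open grey point is not measured. Gpnmb stands apart in the tumour, and Spp1, Cd9 and Ctsd pass 1.5-fold in the TDLN.

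In TDLN macrophages 3 of the 9 members measured were called higher with NanoCa and 0 lower, against 6.45% and 8.24% of 5487 genes. The median log2 ratio was 0.29 over the members and 0.05 over all genes. Cd9 was 73.9 CPM with NanoCa and 29.9 in mock (log2 1.31, interval 0.69 to 1.93), Spp1 297 and 150 CPM (0.99, 0.71 to 1.27), and Ctsd 1017 and 654 CPM (0.64, 0.49 to 0.78). These values come from 70 and 177 cells.

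Each of the 3 calls depended on a setting. Of the 209 Spp1 UMIs with NanoCa, 104 lay in 1 cell, and without the highest cell of each library Spp1 was 155 and 110 CPM (log2 0.49, not called). Ctsd without the highest cells was at 0.49 and not called either, while Cd9 was at 1.34 and still called. Ctsd also lost its call with TMM or median-of-ratios scaling and under the stricter cell filter. Thinning every cell to 2000 UMIs removed all 3 calls and put Cd9 at -0.22, and without doublet removal Spp1 was at -0.24. Choosing macrophages cell by cell put Spp1 at 0.41 and Cd9 at 0.31, not called. Other settings raised the ratios: Cd9 was at 2.36 without doublet removal, and Spp1 at 4.41 after free RNA was subtracted, since the estimate equalled 91.6% of its level in mock and 6.70% with NanoCa. Those estimates rest on 31 and 6 UMIs of Krt8, Krt18 and Rhox5 and are low for the TDLN, so the 4.41 is uncertain.

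Trem2 (360 and 294 CPM, log2 0.29, interval 0.06 to 0.52) and Apoe (6369 and 5175 CPM, 0.30, 0.25 to 0.35) were slightly above mock in the TDLN without a call. Lgals3 (0.11) and Cd63 (0.04) were close to mock. Fabp5 was at 0.22, but was called higher without doublet removal (0.82) and at Leiden resolution 0.5 (0.79), and had too few UMIs after thinning. Lpl (-0.72) had 14 and 46 UMIs, and was at 0.38 under the stricter cell filter, 0.37 at resolution 0.5 and 0.10 without doublet removal. Gpnmb, with 1 and 5 UMIs, was not measured. Whether the 2 tissues differ in their response was not tested.

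Between tissues, Spp1 and Cd9 were higher in tumour than in TDLN macrophages under both treatments. In mock, 2 of 9 measured members were called higher and 0 lower, against 3.26% and 4.83% of 8516 genes; with NanoCa, 3 of 10 and 0, against 3.77% and 2.45% of 8645 genes. Spp1 was higher in the tumour by log2 2.91 in mock and 2.17 with NanoCa, and Cd9 by 2.59 and 1.55. The free-RNA estimate, also higher in the tumour, equalled the shares of these levels given above, and after it was subtracted Spp1 was at 5.57 in mock and 1.46 with NanoCa. Cd9 with NanoCa was then at 0.53 (interval 0.10 to 0.99) and lost its call, as it did under the stricter cell filter (0.96). In mock Cd9 had no such value, since the estimate exceeded its level in TDLN macrophages. The TDLN estimates behind the subtracted values are uncertain and low, as described above. Over the settings that gave a value, the mock ratio of Spp1 ran from 1.75 to 5.57 and that of Cd9 from 1.51 to 3.36.

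Gpnmb was the third gene called with NanoCa, at 98 tumour and 1 TDLN UMI (log2 3.58, interval 1.06 to 8.89), and it was not measured after thinning or with macrophages chosen cell by cell. Trem2 stood at the same level in both tissues, with a log2 ratio of -0.01 (interval -0.17 to 0.15) in mock and 0.00 (-0.19 to 0.20) with NanoCa. Apoe (-0.25 and -0.08) and Ctsd (0.25 and -0.20) also stayed within 2-fold in mock and NanoCa, as did Lgals3 (0.88 and 0.73), Cd63, Fabp5 and Lpl. In mock, Lgals3 was called higher in the tumour under 4 settings (1.01 to 1.10), TMM and median-of-ratios scaling among them. Fabp5 was called higher in mock without doublet removal (1.17), under the stricter cell filter (1.11) and at resolution 0.5 (1.05). With NanoCa, Lpl was called lower in the tumour at resolution 0.5 (-1.23), under the stricter cell filter (-1.24) and cell by cell (-1.28).

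A wider list of 60 genes of lipid handling and lysosomes was read beside the members, all of them found. In tumour macrophages 56 were measured, 3 were called higher with NanoCa (5.36%) and 4 lower (7.14%), beside 7.06% and 2.93% of all genes, and the median log2 ratio was 0.03 beside 0.08. The lower ones were Hmox1, the haem-degrading enzyme (449 against 1120 CPM, -1.32), Cd36 (27.9 against 65.2 CPM, -1.23) and Olr1 (7.27 against 14.2 CPM, -0.97), both receptors for oxidised lipoproteins, and the transcription factor Bhlhe40 (-0.62). The higher ones were Itgax (20.1 against 12.5 CPM, 0.69), Syngr1 (26.8 against 17.1 CPM, 0.65) and the lipid-sensing receptor Pparg (17.3 against 11.5 CPM, 0.59).

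In TDLN macrophages 51 of the 60 were measured, 4 were called higher (7.84%) and 5 lower (9.80%), near the 6.45% and 8.24% of all genes, with a median of 0.01 beside 0.05. Cd36 was again lower (37.0 against 108 CPM, -1.54), as were the lysosomal regulator Mitf (64.0 against 153 CPM, -1.26), Mmp12 (-1.26), Mmp14 (-0.91) and the apoptotic-cell receptor Mertk (-0.73). Among the higher ones were Syngr1 (48.3 against 17.1 CPM), Bhlhe40 (1.00) and the cholesterol exporter Abcg1 (91.0 against 59.1 CPM, 0.62).

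The genes most like Trem2 across 43 class-by-library sums were macrophage genes. Over 7801 genes, the Pearson r of log2(CPM + 10) was highest for C3ar1 (0.98), Ms4a7 (0.97), Fgd4 (0.97), Slc7a8 (0.96) and Adgre1 (0.96). For Gpnmb it was highest for Tnfaip6 (0.79), Serpinb2 (0.76), F3 (0.72), Col1a1 (0.72) and Inhba (0.71). Among the members, Trem2 went with Apoe (0.86) and Ctsd (0.70), and Spp1 with Cd9 (0.84), while Trem2 and Spp1 were at 0.01 and Trem2 and Gpnmb at 0.18. The sums of a library share its free RNA and depth, so these are descriptions with no test.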

How the data were processed

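Raw UMI counts per gene and barcode were used as deposited by the authors, made with Cell Ranger 7.1.0 per the file headers, from single-cell 3′ libraries of CD45-stained, sorted cells per the labels' protocols. Sources used here do not give the sort gate, the number of mice, or the build behind the counts. One batch date is given for all 4 libraries.

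Barcodes needed 200 genes or more and no more than 10% mitochondrial UMIs, and the highest Scrublet scores (scanpy 1.11.5) were removed at 0.8% per 1000 barcodes (7.42% to 8.97% of barcodes). Each tissue was clustered on 2000 variable genes and 30 components with 15 neighbours and Leiden resolution 1, without the members, the wider list, or mitochondrial, ribosomal, haemoglobin, immune-receptor, sex-linked genes. Classes were named from marker lists. A second clustering of the cells of monocyte and macrophage clusters (20 components), the rule that a name with fewer than 5 markers needs one among the 30 leading genes, and the merging of dendritic classes were chosen after seeing the data. Class names are rebuilt, so a name such as T or endothelial means like that type by its markers.

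UMIs were summed per class and library and given as CPM. Levels carry exact Poisson, ratios exact conditional binomial and shares exact Clopper-Pearson 95% intervals. Free RNA was estimated as the Krt8, Krt18 and Rhox5 level of macrophages over that of Ptprc-low cells. This share was multiplied by each gene's level in the sum of all kept cells, a different sum. The estimates are therefore low where Ptprc-low cells hold few of the UMIs. The code for ratios and intervals was checked on simulated counts. TMM factors came from edgeR 4.0.16 and median-of-ratios factors from DESeq2 1.42.0. The members, lists and class rule were chosen with earlier results of these data known. Named genes were all 10 members, up to 5 called highest and lowest of the wider list, and the 5 genes most like Trem2 and Gpnmb; the fibroblast-list clusters were named after their values were seen. One gene of the wider list is not reported here by name.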

Additional observations from a re-analysis of the deposited data

How the results depend on the processing

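No paired analysis was possible because each group has 1 library. Of 224 recomputed counts of called genes, for 20 results under up to 11 planned and 2 added alternatives, 203 stayed within 1.5 times the reported count and 21 did not. The 2 added ones left out shallow clusters or the most unequal tumour cluster. For single members, a further one left out the cell with the most UMIs of the gene. All were chosen after seeing the data. In tumour NanoCa against mock, choosing macrophages cell by cell gave 0 members higher and 2 lower and 0 wider-list genes higher. The same sub-cluster makeup gave 1 member lower, as did leaving out the Tnf and Ccl3 sub-cluster, and thinning gave 2 wider-list genes lower. In TDLN NanoCa against mock, members called higher were 1 cell by cell and 0 after thinning. Wider-list genes higher there were 7 at resolution 0.5 and 2 cell by cell. Wider-list genes lower were 1 without doublet removal, 3 at resolution 0.5, 3 with the C1q limit at 50%, 2 with at least 1000 genes and at most 5% mitochondrial UMIs, 1 after thinning, and 8 with TMM or DESeq2 median-of-ratios factors. Against other cells in TDLN NanoCa, 0 members were lower after thinning. In tumour over TDLN with NanoCa, 1 member was lower at resolution 0.5, cell by cell, and under the stricter filter. The TDLN Spp1 ratio was reversed to -0.24 without doublet removal and Cd9 to -0.22 after thinning; the cause was not tested. With TMM every TDLN ratio of NanoCa to mock fell by 0.11, and every ratio of tumour to TDLN rose by 0.14 in mock and 0.15 with NanoCa. The TDLN values rest on 70 and 177 macrophages, which limits what they can show.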

Other observations

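The cells with fibroblast-list markers were of 2 kinds by their members. In the tumour the larger cluster had 29.8 and 18.0 CPM of Apoe in NanoCa and mock, and the smaller one 93.9 and 69.0 CPM. In the TDLN the corresponding values were 7.95 and 7.14 CPM in the Rhox5-expressing cluster and 1806 and 862 CPM in the other, so that Apoe was also a gene of lymph-node matrix cells. These clusters were chosen after their values were seen, and no test was made.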
